A study of Mus musculus with 12 samples.

Results

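The mitochondrial genome encoded mRNAs (mt mRNAs) described here are mt-Nd1, mt-Nd2, mt-Nd4, mt-Nd5, mt-Nd6, mt-Co1, mt-Co2, mt-Co3, mt-Atp6 and mt-Cytb. They were chosen by name, as a list of 10 genes matched by symbol to mouse Ensembl identifiers, out of 32783 genes with a row in the count tables. Of the 10, 8 had a row in a table and 7 passed the filter on low counts. The 3 that could not be compared were mt-Co2, which had a single count in all, and mt-Co3 and mt-Atp6, which were not analysed here.

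RNA was sequenced from hippocampal cells of male C57Bl6/J mice, taken at 4 months of age. At 2 months the mice had received an AAV2/9 vector in the CA1 of both hippocampi. The AAV-A2A vector carried the murine adenosine A2A receptor (A2AR, gene Adora2a) and the control vector AAV-GFP carried GFP, each under the astrocyte-selective GfaABC1D promoter, so that the control animals had also been injected and expressed a foreign protein. Both hippocampi of a mouse were dissociated whole, hence cells outside the injected CA1 entered every sample. Magnetic beads against ACSA-2, a surface antigen of astrocytes, gave the astrocyte-enriched fraction, and beads against CD11b, a surface protein of myeloid cells, then took the microglia-enriched fraction from the cells the first beads had left. Each fraction had 3 AAV-GFP and 3 AAV-A2A libraries, 12 in all, named here by vector and animal number (GFP-303, A2A-2347). The labels do not say whether a mouse gave cells to both fractions. The fractions came in separate count tables and share no animal numbers. Differences between the cell types can therefore not be told apart from differences between those sets of libraries.

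The mitochondrial genome is a small circular DNA that holds 13 protein genes beside its rRNA and tRNA genes. The proteins are all core subunits of the machinery that turns oxygen and nutrients into ATP. The mt-Nd proteins belong to complex I (NADH dehydrogenase), mt-Cytb to complex III, the mt-Co proteins to complex IV (cytochrome c oxidase) and the mt-Atp proteins to complex V (ATP synthase), while the other subunits of these complexes come from nuclear genes. Both strands are transcribed as long precursors and cut at the tRNAs between the genes, and most of the mRNAs receive a short poly(A) tail, which lets an oligo-dT primed library capture them. mt-Nd6 is the only mRNA made from the light strand. On the mitochondrial chromosome of GRCm38 the complex I genes lie at 2751 to 3707 (mt-Nd1), 3914 to 4951 (mt-Nd2), 10167 to 11544 (mt-Nd4), 11742 to 13565 (mt-Nd5) and, on the opposite strand, 13552 to 14070 (mt-Nd6). mt-Cytb lies at 14145 to 15288, mt-Co1 at 5328 to 6872, mt-Co2 at 7013 to 7696, mt-Co3 at 8607 to 9390 and mt-Atp6 at 7927 to 8607.

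Parts of the mitochondrial genome have also been copied into the nuclear chromosomes during evolution. A read of 50 bases, the length used in this study, that is the same in both places has no unique position, and the authors counted only uniquely aligned reads. The genes were therefore compared with all nuclear transcripts of the GENCODE annotation of GRCm38, in windows of 50 bases. Of the 15 mitochondrial genes longer than 150 bases, 5 had more than 95% of their windows in a nuclear transcript, namely mt-Co2 (100%), mt-Co3 (99.9%), mt-Atp6 (99.5%), mt-Nd4l (98.8%) and mt-Nd3 (98.0%). In the 12 libraries together these 5 genes held 371 counts. The partly shared genes were mt-Nd4 with 62.2%, mt-Co1 with 51.1%, mt-Nd2 with 8.19%, mt-Nd5 with 7.61% and the rRNA gene mt-Rnr2 with 1.04%. No window of mt-Nd1, mt-Nd6 or mt-Cytb was found in a nuclear transcript. The same was true of mt-Atp8, yet no row of mt-Atp8 was used here. Whether a copy outside the annotated transcripts covers mt-Atp8 was not tested. Sequence between the annotated transcripts was not searched.

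Most of the sharing was with a block of 7 pseudogenes on the minus strand of chromosome 1, from 24611535 to 24616197. The nuclear sequences are shown because a 50-base read that lies within a stretch shared with them has no unique position. Whether this sharing accounts for the counts of each gene was not tested. The first pair is the start of mt-Co2 (chrM:7013-7072, plus strand) and of the pseudogene Gm28661 (chr1:24615506-24615565, minus strand). Over the 681 bases compared, 0 differed.
mt-Co2: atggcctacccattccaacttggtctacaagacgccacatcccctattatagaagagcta
Gm28661: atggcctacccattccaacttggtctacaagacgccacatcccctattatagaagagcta

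The second pair shows the upstream end of that nuclear block, inside mt-Co1 (chrM:6381-6440, plus strand) and Gm29216 (chr1:24616138-24616197, minus strand). Of 492 bases compared, 6 differed, all 6 within this window, and the capitals mark them. Downstream of these bases mt-Co1 and the pseudogene were the same.
mt-Co1: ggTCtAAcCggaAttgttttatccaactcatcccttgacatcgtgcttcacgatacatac
Gm29216: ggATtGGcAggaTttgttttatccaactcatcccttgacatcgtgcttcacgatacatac

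The third pair shows an older copy for contrast. mt-Cytb (chrM:14370-14429, plus strand) and the pseudogene Gm11410 (chr4:80004214-80004273, plus strand) differed at 82 of 1143 bases, and the longest run they shared was 47 bases, under the length of a read. The capital marks the only difference in the 60 bases that were most alike.
mt-Cytb: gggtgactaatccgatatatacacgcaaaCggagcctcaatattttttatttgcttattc
Gm11410: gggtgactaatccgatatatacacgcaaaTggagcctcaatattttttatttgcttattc

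**Figure D1:**
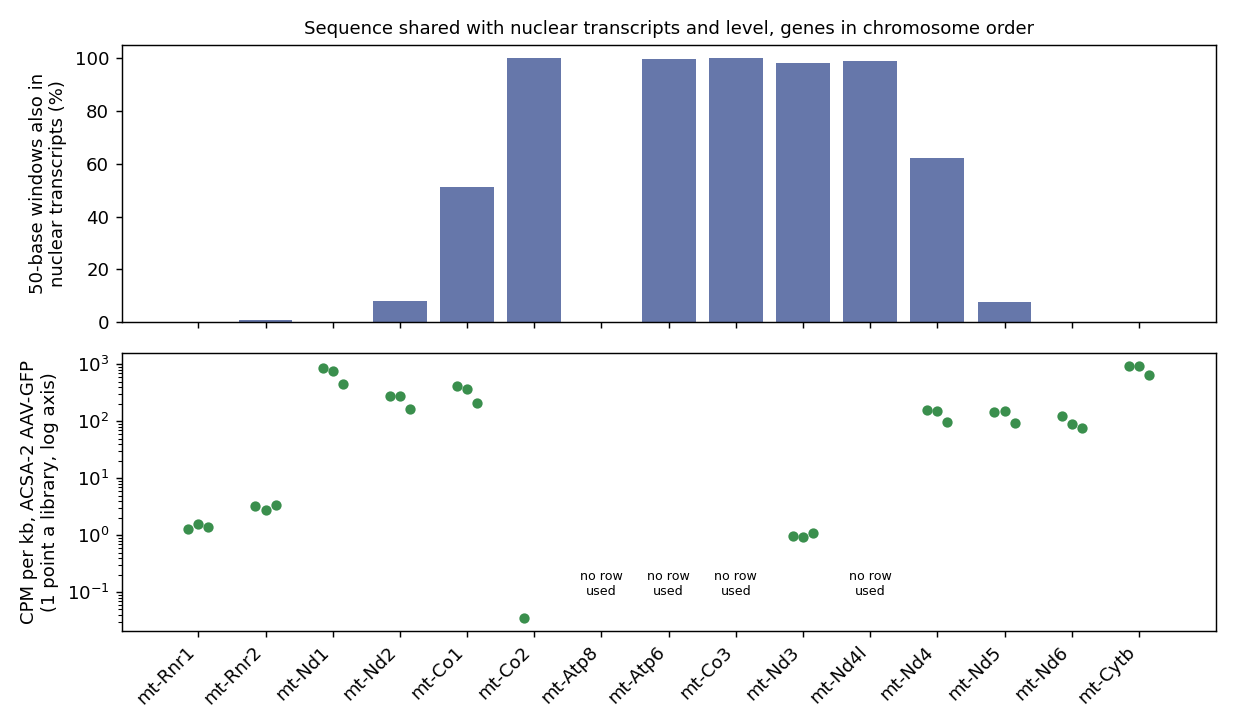
Genes of the mitochondrial chromosome over 150 bases in chromosome order. The upper bars give the share of 50-base windows also found in a nuclear transcript (%), and the lower points give counts scaled to the size of the library (CPM) per kb of gene on a log axis, 1 point for each of the 3 ACSA-2 AAV-GFP libraries (a value of 0 has no point). mt-Co2, with 100% of windows shared, has 1 count in 1 library, and mt-Nd1 and mt-Cytb, with 0% shared, have the highest levels.

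Among the genes with most windows shared, mt-Co2 had 1 count in GFP-303 and 0 in the other 5 ACSA-2 libraries, and a count of 0 allows a level of up to 0.0610 to 0.0884 CPM (3 counts). mt-Nd3 lay between 7 and 17 counts in the 6 ACSA-2 libraries and between 9 and 169 in the CD11b libraries. The 6 pseudogenes of the block that were counted did not hold the missing reads either, since none had more than 6 counts in any library. The copy of mt-Nd4l in the block and the copies outside it were not among those counted. The level of mt-Co2, mt-Co3 and mt-Atp6 in these cells therefore cannot be read from the counts, and those of mt-Co1 and mt-Nd4 rest on the part of the gene without a copy. Reads were counted without a stated strand setting and the library kit does not mark strand, so reads of mt-Nd6 and of heavy-strand RNA opposite it cannot be told apart.

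Before the comparisons, the libraries themselves were checked. Libraries held 33937067 to 53206974 counts. Adora2a was at 22.7 to 25.7 CPM in ACSA-2 AAV-GFP libraries and at 681 to 867 CPM with AAV-A2A, and at 4.41 to 7.59 against 15.6 to 42.4 CPM in CD11b libraries. Astrocyte markers took 2.52 to 3.65% of counts in the ACSA-2 libraries and 0.0249 to 0.0576% in the CD11b libraries, whereas microglia markers took 0.0403 to 0.0757% and 1.23 to 7.13%. In the CD11b fraction GFP-2328, GFP-2329 and A2A-2347 stood apart. Choroid plexus markers, led by Ttr, a thyroxine carrier made by the choroid plexus epithelium, took 12.7%, 9.82% and 6.55% of their counts, against 0.00292 to 0.0164% in the other 3, with all 13 markers of the list detected in the fraction. Microglia markers took 1.23%, 2.44% and 2.91% in those 3 libraries and 5.76 to 7.13% in the others. In the ACSA-2 fraction A2A-310 stood apart with 0.645% of counts on 5 nuclear retained RNAs such as Malat1 and Neat1, against 0.0664 to 0.245% in the other 5.

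The mt mRNAs took well under 2% of the counts of every library, and libraries of 1 group differed by up to 7.81 times. In ACSA-2 cells with AAV-GFP the share was 0.340% in GFP-303, 0.318% in GFP-306 and 0.204% in GFP-307, a mean of 0.287% ± 0.0734 (SD, n = 3). With AAV-A2A it was 0.325% in A2A-309, 0.861% in A2A-310 and 0.194% in A2A-313 (0.460% ± 0.353, SD, n = 3). The vectors overlapped, and A2A-310 was alone in being high, at 4.44 times the lowest library of its group.
In CD11b cells with AAV-GFP the share was 1.68% in GFP-2328, 1.15% in GFP-2329 and 0.215% in GFP-2331 (1.01% ± 0.741, SD, n = 3). With AAV-A2A it was 0.180% in A2A-2343, 0.196% in A2A-2344 and 0.183% in A2A-2347 (0.186% ± 0.00846, SD, n = 3). The 3 AAV-A2A libraries lay close together and below all 3 AAV-GFP libraries, of which GFP-2328 was the highest and GFP-2331 the lowest. The Wilson 95% interval of any library's share was at most 0.00373 percentage points to either side, so that counting error was far below the spread between libraries. By its count mt-Cytb was gene 5 in GFP-2328 and gene 17 in GFP-2329 but between gene 141 and gene 190 in the other CD11b libraries, and gene 28 in A2A-310. Intervals of this kind cover counting error only. In such bulk samples, fewer cells of a type and less RNA per cell cannot be told apart.

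**Figure D2:**
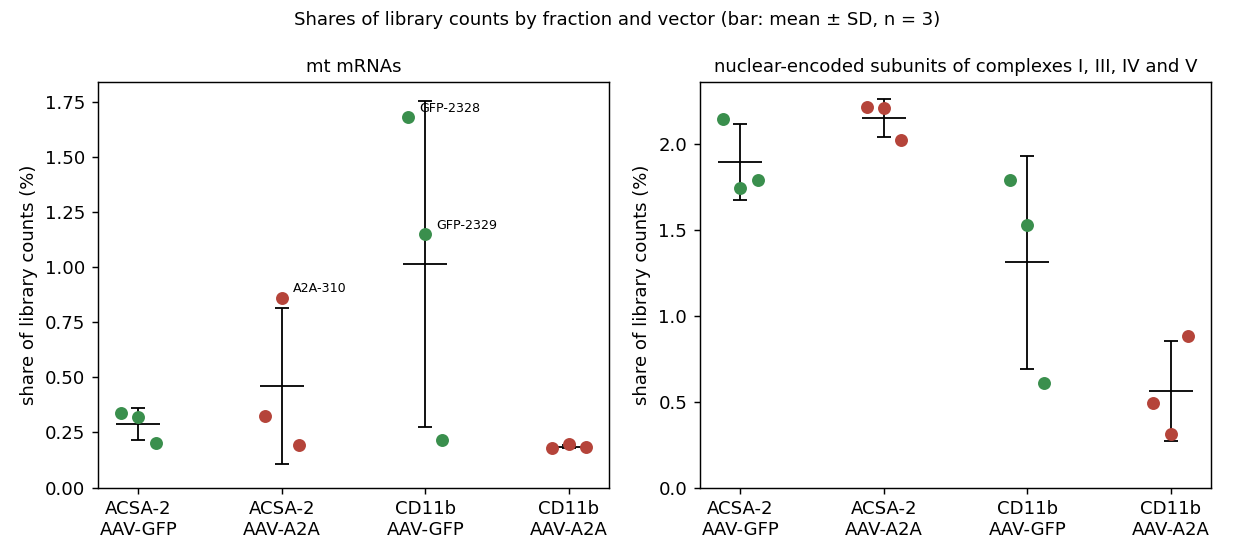
Share of library counts (%) taken by the mt mRNAs (left) and by nuclear-encoded subunits of complexes I, III, IV and V (right), by fraction and vector; points are libraries, horizontal bars with whiskers are the mean ± SD of 3. A2A-310, GFP-2328 and GFP-2329 lie above all other libraries for the mt mRNAs, at 0.861%, 1.68% and 1.15%.

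Some marker lists were high in all 3 high libraries and others in part of them. Border macrophage markers were low in GFP-2328 (0.00589%) and GFP-2329 (0.00528%), against 0.0155 to 0.0262% in the other CD11b libraries. In A2A-310 they took 0.00963%, the highest share of the ACSA-2 fraction. Oligodendrocyte markers were lowest of the CD11b fraction in GFP-2328 (0.0165%). Astrocyte markers were highest of that fraction in GFP-2328 (0.0576%) and GFP-2329 (0.0539%). GFP-2328 and GFP-2329 had both a high mt mRNA share and a high share of choroid plexus markers. A2A-2347, with 6.55% choroid plexus markers, had an mt mRNA share of 0.183%, among the lowest of all. A2A-310 had 0.142% choroid plexus markers, little above the 0.0718 to 0.114% of the other ACSA-2 libraries, and the highest share of nuclear retained RNAs of all. Those RNAs were also highest in GFP-2328 (0.165%) and GFP-2329 (0.111%) within the CD11b fraction, against 0.0314 to 0.0835% in the other 4. All 3 high libraries thus led their fraction for this list, as they did for the choroid plexus, endothelial and ependymal markers. Erythrocyte markers were also highest in GFP-2329 (0.665%) and GFP-2328 (0.279%), against 0.00634 to 0.0930% in the other CD11b libraries. Neuron markers took 0.0158% and 0.0220% of counts in GFP-2328 and GFP-2329 and at most 0.00157% in the other CD11b libraries, and endothelial markers 0.131% and 0.223% against 0.0352 to 0.0650%. A2A-2347 was at 0.000476% and 0.0424% for these lists and at 0.00634% for the erythrocyte markers, the lowest or close to the lowest of the fraction. In the ACSA-2 fraction A2A-310 had 0.107% endothelial markers, against 0.0503 to 0.0813% in the other libraries. Ependymal markers took 0.251% in A2A-310, against 0.0634 to 0.222% in the other ACSA-2 libraries. They took 0.0381% in GFP-2328 and 0.0565% in GFP-2329, against 0.00611 to 0.0232% in the other CD11b libraries. The part of choroid plexus cells, erythrocytes, neurons, endothelial cells, ependymal cells, the other cell types listed or RNA quality in the mt mRNA levels was not tested.

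**Figure D3:**
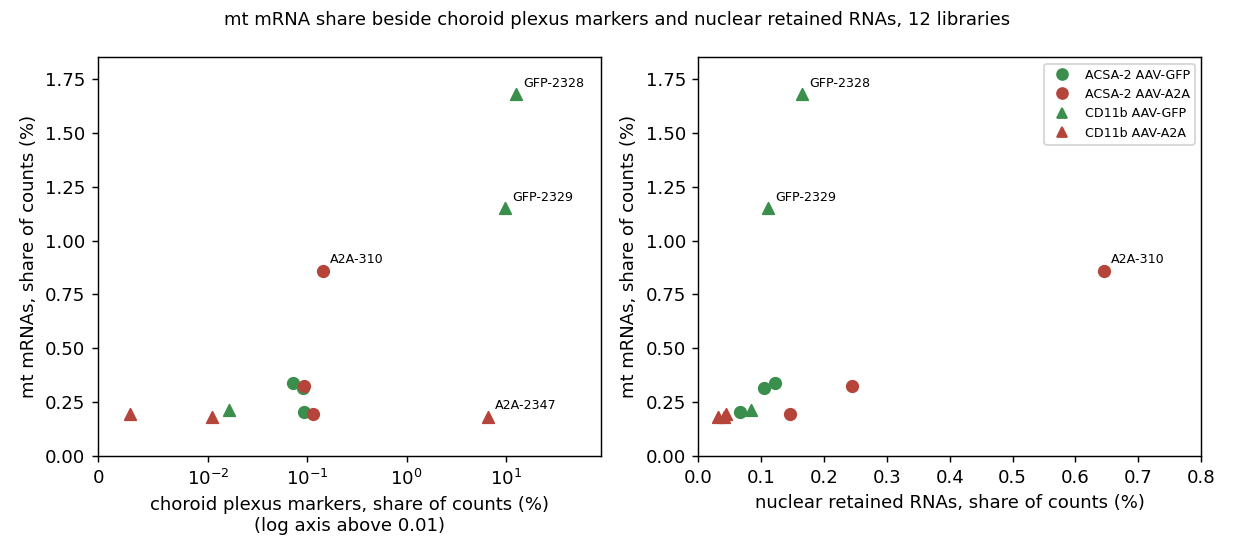
Share of counts taken by the mt mRNAs (%, vertical axis) against that of the 13 choroid plexus markers (left, %, log axis above 0.01) and of the 5 nuclear retained RNAs (right, %), 1 point for each of the 12 libraries. GFP-2328 and GFP-2329 are high on both axes of the left panel, while A2A-2347 has 6.55% choroid plexus markers and 0.183% mt mRNAs.

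Within a library the mRNAs had very unequal levels. Levels of different genes were compared as CPM per kb of gene, since a longer gene yields more reads. In ACSA-2 AAV-GFP libraries the order was mt-Cytb (843 ± 164 CPM per kb, SD, n = 3), mt-Nd1 (689 ± 205), mt-Co1 (337 ± 110), mt-Nd2 (244 ± 67.7), mt-Nd4 (135 ± 31.9), mt-Nd5 (131 ± 31.9) and mt-Nd6 (96.5 ± 25.8). The neighbours mt-Cytb and mt-Nd1, mt-Co1 and mt-Nd2, mt-Nd4 and mt-Nd5, and mt-Nd5 and mt-Nd6 lay within each other's spread. Counted only over windows without a nuclear copy, mt-Co1 came to 713 ± 232 CPM per kb and mt-Nd4 to 372 ± 87.5, beside 881 ± 172 for mt-Cytb and 726 ± 216 for mt-Nd1. On that scale mt-Co1 was as high as mt-Nd1, and the mean of mt-Nd4 was above those of mt-Nd2 (279 ± 77.4), within the spread, and mt-Nd5 (145 ± 35.5).
mt-Nd6, the light-strand mRNA, was the lowest of the 7 on both scales in this group.
The rRNA genes, which make up most mitochondrial RNA in a cell but are poorly caught by oligo-dT priming, were at 1.42 ± 0.156 (mt-Rnr1) and 3.13 ± 0.332 CPM per kb (mt-Rnr2).

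The 7 mRNAs moved together from library to library. With each gene centred on the mean of its fraction, the log2 level of each mRNA followed the mean of the other 6 over the 12 libraries with a Pearson r of 0.946 for mt-Co1 and 0.980 to 0.995 for the rest. This is a description, because the genes share their libraries and the 3 high libraries dominate the values. By the same measure the nuclear protein-coding genes most alike, of 9463 compared, were 1810022K09Rik (r = 0.919), Borcs8 (0.910), Ccdc81 (0.909), Pigp (0.904) and Emcn (0.903).
Emcn codes for endomucin, a surface protein of endothelial cells, and Pigp for a part of the enzyme that starts GPI anchor synthesis. Emcn was at 57.3 and 69.8 CPM in GFP-2328 and GFP-2329 and at 14.7 to 25.9 CPM in the other CD11b libraries, and at 68.5 CPM in A2A-310 against 38.8 to 63.9 CPM in the other ACSA-2 libraries.

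The make-up of the mt mRNA counts was steadier than their sum, and mt-Nd5, the largest of the mitochondrially encoded complex I subunits, differed between the fractions. Its share of the counts of the mt mRNAs was 7.91%, 8.64% and 8.41% in ACSA-2 cells with AAV-GFP and 9.58%, 9.11% and 10.3% with AAV-A2A. In the CD11b fraction it was 15.7%, 16.1% and 13.6% with AAV-GFP and 13.5%, 15.4% and 20.8% with AAV-A2A. All 6 CD11b libraries lay above all 6 ACSA-2 libraries, including the CD11b libraries with few choroid plexus markers and a low mt mRNA share. The means were 15.9% ± 2.68 and 8.98% ± 0.848 (SD, n = 6), a difference of 6.88 percentage points, and of 5.18 points without GFP-2328, GFP-2329 and A2A-2347. Counted per kb, the difference was 4.65 points.
The ratio of mt-Nd5 to mt-Cytb counts, for which nuclear copies matter little, separated the fractions as well, with 0.229 to 0.273 in ACSA-2 libraries and 0.373 to 0.605 in CD11b libraries.
The shares of the other 6 overlapped between the fractions. mt-Cytb took 32.2 to 37.6% of the counts in ACSA-2 and 31.4 to 36.2% in CD11b libraries, and mt-Nd2 took 7.75 to 9.26% and 6.33 to 9.72%. Without the 3 libraries rich in choroid plexus markers, mt-Nd2 was lower in all remaining CD11b libraries than in the ACSA-2 libraries. No test was made of these shares, because the genes were chosen with results known.

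**Figure D4:**
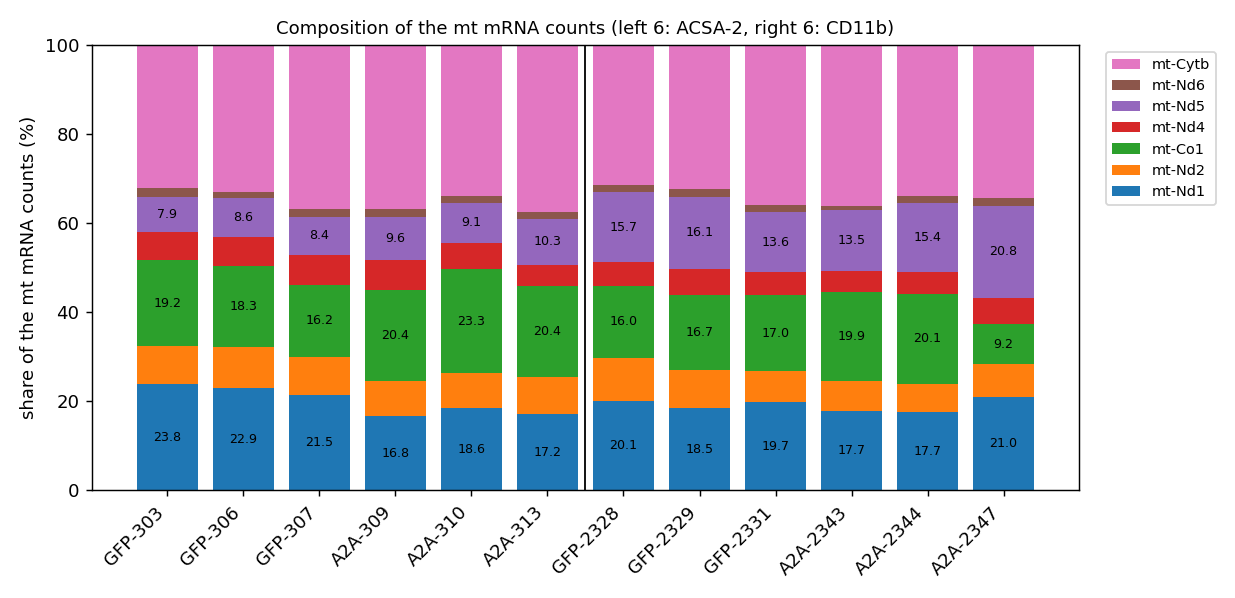
Share of each mt mRNA in the counts of the mt mRNAs (%, stacked to 100), 1 bar for each library, ACSA-2 left of the line and CD11b right of it, with the values of mt-Nd1, mt-Co1 and mt-Nd5 written in. mt-Nd5 takes 7.91 to 10.3% in the ACSA-2 bars and 13.5 to 20.8% in the CD11b bars, and A2A-2347 has the smallest mt-Co1 share, 9.19%.

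Within the ACSA-2 fraction the make-up also differed between the vectors, while in the CD11b fraction the vectors overlapped for all 7. mt-Nd1, a complex I subunit whose gene follows the rRNA genes, took 23.8%, 22.9% and 21.5% of the mt mRNA counts with AAV-GFP and 16.8%, 18.6% and 17.2% with AAV-A2A. It was lower in every AAV-A2A library, also in A2A-310 where its level was highest. mt-Co1, the catalytic subunit of complex IV, went the other way with 19.2%, 18.3% and 16.2% against 20.4%, 23.3% and 20.4%. mt-Nd5 and mt-Nd2 also did not overlap between the vectors, with mean differences (AAV-A2A minus AAV-GFP) of 1.33 and -0.859 percentage points, beside -5.23 for mt-Nd1 and 3.48 for mt-Co1. Shares of a whole are tied to each other, so these 4 are not separate results, and 3 libraries against 3 do not allow a p-value under 0.10 by an exact permutation test.
In the CD11b fraction mt-Co1 took 16.0 to 20.1% in 5 libraries and 9.19% in A2A-2347, which had the highest mt-Nd5 share.

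The first comparison asked whether the receptor changed the mt mRNAs in the astrocyte-enriched cells, where the vector is expressed. None of the 7 passed the test. mt-Cytb was at 1093, 1052 and 749 CPM with AAV-GFP and at 1199, 2926 and 729 CPM with AAV-A2A. mt-Co1 was at 652, 582 and 330 CPM against 664, 2004 and 395 CPM. mt-Nd1 was at 811, 728 and 438 CPM against 546, 1599 and 333 CPM. For all 7 the vectors overlapped, where 19.6% of all genes tested did not, and A2A-310 was the highest library.
The edgeR log2 fold changes (AAV-A2A against AAV-GFP) were positive for all 7, from 0.27 (SE 0.48, mt-Nd1) to 0.92 (SE 0.50, mt-Co1), and their median of 0.49 stood beside a median of 0.02 over all 16451 genes tested. A gene was called where its log2 fold change was over 0.32 in either direction and its p, adjusted by Benjamini-Hochberg over all genes, was under 0.05. edgeR called 0 of the 7, and 3.36% of all genes tested (0.176% as higher). At an unadjusted p under 0.05 there were also 0, against 13% of all genes. limma-voom and DESeq2 called 0, where limma-voom called 592 of all 16451 genes and DESeq2 called 7.13% of all genes. The edgeR adjusted p lay between 0.488 (mt-Nd5) and 0.906 (mt-Nd1).
Without A2A-310, 6 of the 7 log2 fold changes were negative, from -0.61 (SE 0.31, mt-Nd1) to -0.00068 (mt-Co1), and mt-Nd5 stood at 0.08 (SE 0.27). The direction of these 6 rested on that library.

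In the microglia-enriched fraction, where the vector itself is not meant to be expressed, the 7 mRNAs were lower with AAV-A2A in the mean, and edgeR did not call the difference. mt-Nd6 was at 286, 207 and 30.7 CPM with AAV-GFP and at 18.0, 28.3 and 29.3 CPM with AAV-A2A. mt-Nd2 was at 1631, 991 and 152 CPM against 124, 124 and 134 CPM. mt-Cytb was at 5279, 3712 and 776 CPM against 650, 666 and 631 CPM. The gap was made by GFP-2328 and GFP-2329, with GFP-2331 close to the AAV-A2A libraries.
For mt-Nd5 (2635, 1855 and 292 CPM against 242, 302 and 382 CPM) and mt-Co1 (2693, 1922 and 366 CPM against 358, 393 and 168 CPM) GFP-2331 lay among the AAV-A2A libraries. The other 5 mRNAs did not overlap between the vectors, where 23.4% of all 16949 genes tested did not overlap.
The log2 fold changes ran from -2.14 (SE 0.70, mt-Cytb) to -2.67 (SE 0.77, mt-Nd2), with a median of -2.32 beside -0.05 over all genes tested. edgeR called 0 of the 7 and 0% of all genes, with adjusted p from 0.280 to 0.282. All 7 had an unadjusted p under 0.05, from 0.00852 (mt-Nd6) to 0.0231 (mt-Co1), as did 16.0% of all genes. limma-voom called 0 of the 7 and 0 of all 16949 genes tested.
DESeq2 called 5 of the 7, all but mt-Nd5 (adjusted p = 0.0582) and mt-Co1 (adjusted p = 0.0648), and 2.90% of all genes. Without GFP-2328 and GFP-2329 the edgeR log2 fold changes lay between -0.32 (SE 0.54, mt-Nd6) and 0.05 (SE 0.53, mt-Nd5), where the 1 AAV-GFP library left was assumed to vary like the others. Without the 3 libraries rich in choroid plexus markers they lay between -0.40 (mt-Nd6) and 0.06 (mt-Co1).

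**Figure D5:**
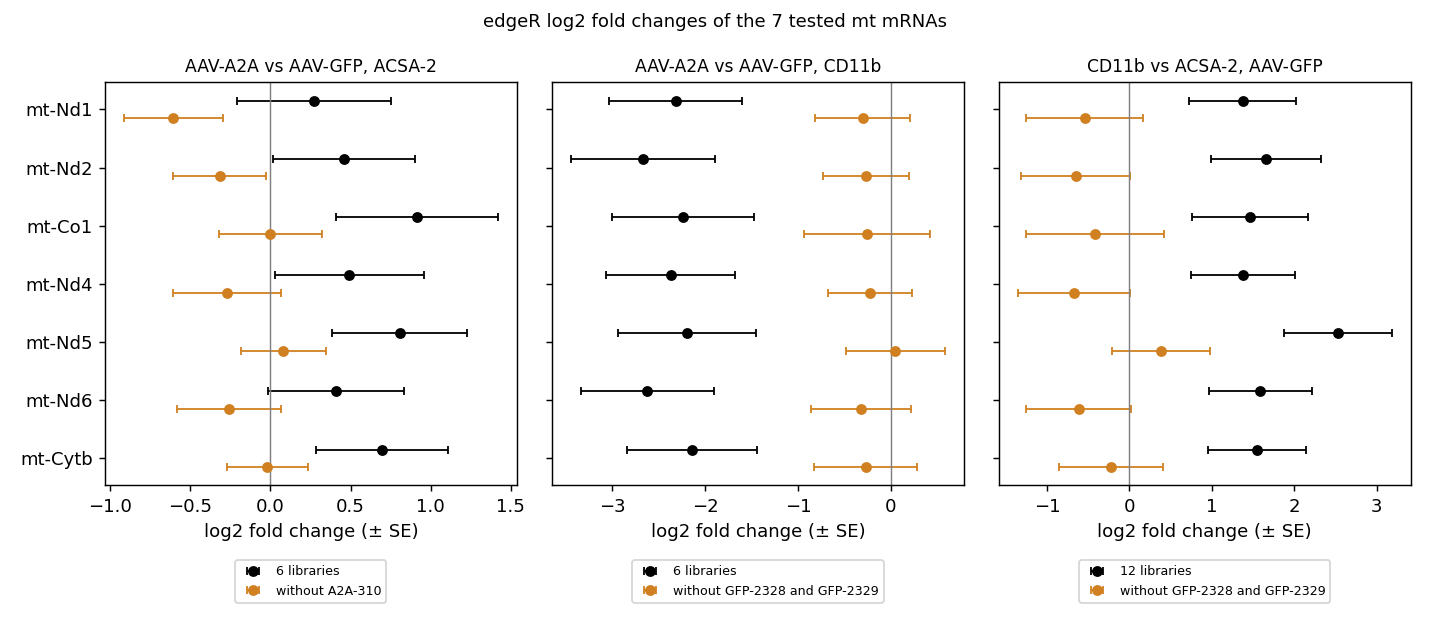
edgeR log2 fold changes ± SE of the 7 tested mt mRNAs, for AAV-A2A against AAV-GFP in the ACSA-2 fraction (left) and the CD11b fraction (middle) and for CD11b against ACSA-2 in AAV-GFP animals (right); black, all libraries, and orange, without the libraries named. In the middle panel the values move from between -2.67 and -2.14 to between -0.32 and 0.05 without GFP-2328 and GFP-2329.

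The comparison of the fractions in AAV-GFP animals shares its 3 CD11b libraries with the comparison above. mt-Nd5 was the only mRNA called. It stood at 269, 275 and 171 CPM in ACSA-2 and at 2635, 1855 and 292 CPM in CD11b cells, with no overlap and a log2 fold change of 2.53 (SE 0.65, edgeR adjusted p = 0.0150). The other 6 overlapped, because GFP-2331 was not above the ACSA-2 libraries. It lay among them for mt-Co1 and mt-Cytb and below all 3 for mt-Nd1, mt-Nd2, mt-Nd4 and mt-Nd6, as for mt-Nd1 with 811, 728 and 438 CPM against 3372, 2124 and 425 CPM. edgeR called 1 of the 7, which was higher, beside 26.7% of all 18602 genes tested (14.4% as higher), and groups did not overlap for 48.1% of all genes.
All 7 log2 fold changes were positive, and the other 6 ran from 1.37 (SE 0.65, mt-Nd1) to 1.65 (SE 0.67, mt-Nd2), with adjusted p from 0.0739 to 0.147. At an unadjusted p under 0.05 there were 4 of the 7, beside 39.6% of all genes. The median of the 7 was 1.55, beside 0.11 over all genes. DESeq2 called 4 (mt-Nd2, mt-Nd5, mt-Nd6 and mt-Cytb), beside 35.2% of all genes.
The call of mt-Nd5 was lost without GFP-307 (2.45, adjusted p = 0.0538) and without GFP-2328 and GFP-2329 (0.38, SE 0.60, adjusted p = 0.689). Without these 2 libraries the log2 fold changes of the other 6 were negative, from -0.67 (mt-Nd4) to -0.22 (mt-Cytb). Without GFP-2331, on the other hand, 6 of the 7 were called, where 20.4% of all genes were, and mt-Co1 was not.

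The difference between the vector effects of the fractions (CD11b minus ACSA-2), which again shares all these libraries, ran from -2.51 (SE 0.91, mt-Nd1) to -3.05 (SE 0.94, mt-Nd2) on the log2 scale. edgeR called 0 of the 7 (adjusted p from 0.115 to 0.165) and 0.403% of all genes tested (0.366% as higher). All 7 had an unadjusted p under 0.05, as did 19.6% of all genes. limma-voom called 0 of the 7, beside 89 of all 18602 genes tested. DESeq2 called 6, all but mt-Nd1 (adjusted p = 0.0535), beside 10% of all genes. Without GFP-2331 edgeR called all 7, where it called 6.61% of all genes, and without GFP-2328 and GFP-2329 the differences lay between -1.15 (mt-Co1) and -0.58 (mt-Nd1) with 0 called.

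Of the other RNAs of the mitochondrial chromosome, mt-Nd3 and the rRNA genes were also highest in GFP-2328 and GFP-2329 of the CD11b libraries. In the ACSA-2 fraction A2A-310 did not stand apart for mt-Nd3, with 0.417 CPM beside 0.413 CPM in A2A-309 and 0.375 CPM in GFP-307. mt-Rnr2, the large rRNA, was at 39.0 and 24.1 CPM in GFP-2328 and GFP-2329 and at 1.94 to 2.91 CPM in the other CD11b libraries. In the ACSA-2 fraction mt-Rnr2 was at 4.37 to 5.39 CPM with AAV-GFP and at 13.9, 17.4 and 4.37 CPM with AAV-A2A. A2A-309 was thus also high for it, unlike for the tested mt mRNAs. No rRNA or tRNA gene was called for the vectors in either fraction by edgeR. Of the tRNA genes tested between the fractions, mt-Te, mt-Ti, mt-Tl1, mt-Tm, mt-Tn and mt-Tq were not called. mt-Ta (log2 fold change 3.61, SE 1.14, edgeR adjusted p = 0.0362) and mt-Tc (4.05, SE 1.17, adjusted p = 0.0252) were called, beside 26.7% of all 18602 genes tested. Both were higher in CD11b than in ACSA-2 cells of AAV-GFP animals. Both rest on few reads, 5 to 22 and 4 to 12 counts in the ACSA-2 AAV-GFP libraries and 48 to 352 and 33 to 297 counts in the CD11b AAV-GFP libraries. They lie between mt-Nd2 and mt-Co1 and are coded on the light strand, so that without strand their reads cannot be told from heavy-strand precursor RNA.

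The nuclear-encoded subunits that join the mitochondrial ones in complexes I, III, IV and V followed the mt mRNAs from library to library only in part. They took 1.75 to 2.22% of counts in ACSA-2 libraries, 1.79%, 1.53% and 0.612% in the CD11b AAV-GFP libraries and 0.493%, 0.311% and 0.884% in the CD11b AAV-A2A libraries. GFP-2328 and GFP-2329 were thus high for both. A2A-2347 was the highest of the AAV-A2A libraries for the nuclear subunits only, and A2A-310 had 2.21%, close to the 2.22% of A2A-309. There were 0.0957 to 0.389 counts of mt mRNA for each count of the nuclear subunits in ACSA-2 libraries and 0.207 to 0.936 in CD11b libraries.
In the vector comparisons edgeR called 0 of 78 subunits in ACSA-2 cells (median log2 fold change 0.21) and 0 of 77 in CD11b cells (median -1.53, with 36 at an unadjusted p under 0.05, beside 16.0% of all genes). Between the fractions 22 of 78 were lower and 0 higher in CD11b cells of AAV-GFP animals, beside 2290 lower and 2678 higher of all 18602 genes tested. The median of the 78 was -0.82, beside 0.11 over all genes. The largest called changes were in Cox7b2, Cox4i2 (-2.61), Ndufa4l2 (-2.22) and Ndufc2 (-2.00), the first 3 being isoform or paralogue genes of subunits that are found in some tissues only. Cox7b2 was at 1.53 to 3.64 CPM in ACSA-2 AAV-GFP libraries and at 0.110, 0 and 0 CPM in the CD11b ones. Without GFP-2328 and GFP-2329 the median of the nuclear subunits was -1.88, and that of the mt mRNAs went from 1.55 to -0.55, beside -0.20 over all genes.
In CD11b cells the median for the vector went from -1.53 to -0.30 without those 2 libraries and to -0.89 without A2A-2347 as well.

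Among the genes that make mitochondrial RNA, edgeR called 1 of 18 for transcription and replication of the mitochondrial DNA in ACSA-2 cells. Of all 16451 genes tested there, 553 were called (524 as lower). Twnk, the helicase of mitochondrial DNA replication, fell by 1.47 (SE 0.33, adjusted p = 0.0433) on the log2 scale with AAV-A2A, a call lost without A2A-310 (-1.39, adjusted p = 0.174). Polrmt, the RNA polymerase that transcribes the mitochondrial genome, and Tfam, which packs the genome and starts transcription, stood at 0.04 (SE 0.32) and -0.08 (SE 0.26). In CD11b cells Polrmt stood at 1.09 (SE 0.39, adjusted p = 0.288) and Tfam at -0.08 (SE 0.32), with 0 of 18 called. Between the fractions 1 of the 18 was called, beside 26.7% of all 18602 genes tested (14.4% as higher). This was Polrmt, higher in CD11b cells (1.41, SE 0.34, edgeR adjusted p = 0.0107), at 22.2 to 31.8 CPM against 7.95 to 9.98 CPM in the AAV-GFP libraries. Without GFP-2328 and GFP-2329 it stood at 1.40 (SE 0.47, adjusted p = 0.0649).

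Of 26 genes for processing, stability and decay of mitochondrial RNA, 1 was called for the vector in ACSA-2 cells. Beside it stood 553 called (524 as lower) of all 16451 genes tested. Pde12, which removes poly(A) tails from mitochondrial RNA, was at 116 to 158 CPM with AAV-GFP and at 39.9 to 54.9 CPM with AAV-A2A, and fell by 1.50 (SE 0.21, adjusted p = 0.00505), also without A2A-310 (-1.38, adjusted p = 0.0275). In CD11b cells 0 of the 26 were called. Lrpprc, which with Slirp keeps mitochondrial mRNAs stable and polyadenylated, stood at 0.14 (SE 0.40) in ACSA-2 and 0.94 (SE 0.40, adjusted p = 0.313) in CD11b cells, against the direction of the mt mRNAs there. Slirp had at most 1.15 CPM in any library and stood at 0.58 (SE 0.98) and -1.74 (SE 0.82, adjusted p = 0.350). Pnpt1, a nuclease of mitochondrial RNA, stood at -0.48 (SE 0.31) and 0.07 (SE 0.32).
Between the fractions 2 of the 26 were higher in CD11b cells, Lrpprc (1.79, SE 0.40) among them, beside 2678 of all 18602 genes tested. The 3 that were lower, beside 2290 of all genes, were Trmt61b (-1.59), Hsd17b10 (-1.41) and Pde12 (-1.08), which modify or cut mitochondrial RNA or its tails.

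The remaining mitochondrial lists gave few calls for the vector. Of 12 regulators of mitochondrial biogenesis, 0 of 11 tested were called in ACSA-2 cells and 0 of 12 in CD11b cells. Ppargc1a, the coactivator that drives mitochondrial biogenesis, stood at 0.11 (SE 0.24) and -1.20 (SE 1.58). In CD11b cells it was at 61.4, 31.3 and 34.1 CPM in GFP-2328, GFP-2329 and A2A-2347 and at 0.907 to 2.40 CPM in the other 3, the split seen for the choroid plexus markers. Between the fractions 1 of the 12 was called higher in CD11b cells, Sirt1 (1.27), beside 2678 of all 18602 genes tested. Sirt3, a mitochondrial deacylase, was the 1 called lower (-1.21), beside 2290 of all genes. Ppargc1a was called and lower (-5.53) without the 3 libraries rich in choroid plexus markers and not with them (-0.78).
Of 13 genes of mitophagy and mitochondrial dynamics, 1 was called in ACSA-2 cells, beside 553 of all 16451 genes tested (524 as lower). It was Dnm1l, the GTPase that divides mitochondria. Dnm1l fell by 1.31 (SE 0.21, edgeR adjusted p = 0.00862) with AAV-A2A, also without A2A-310 (-1.32, adjusted p = 0.0469). In CD11b cells 0 were called. Between the fractions 5 of the 13 were lower in CD11b cells and 0 higher, beside 2290 lower and 2678 higher of all 18602 genes tested. Dnm1l (-1.31), Bnip3 (-1.30), Fis1 (-1.11) and Pink1 (-1.01) were the largest. The median of the 13 went from -0.62 to -0.93 without GFP-2328 and GFP-2329, beside -0.20 over all genes.
Of the 89 genes of the mitochondrial ribosome and translation, 0 were called for the vector in ACSA-2 cells and 0 of 88 in CD11b cells, where the median was -0.67. Between the fractions 34 of 89 were lower in CD11b cells, Mrpl27 (-1.52), Mrps14 (-1.51) and Mrpl30 (-1.50) among them, and 2 were higher, with Gfm2, a factor that recycles mitochondrial ribosomes, at 1.73. Of all 18602 genes tested, 2290 were called lower and 2678 higher. The median of the 89 went from -0.73 to -0.71 without GFP-2328 and GFP-2329, beside -0.20 over all genes.
Genes listed as cytosolic ribosomal proteins, chosen by the letters of their symbols, took 0.162 to 0.293% of the counts of any library. That share includes kinase genes matched by symbol alone, such as Rps6ka1 at 1384 CPM in A2A-2344, where the list took 0.268% of counts. Of 89 tested, 0 were called for the vector in either fraction. Between the fractions 11 were higher and 1 lower in CD11b cells, beside 2678 higher and 2290 lower of all 18602 genes tested. Their median log2 fold change went from 0.29 to 0.21 without GFP-2328 and GFP-2329, beside -0.20 over all genes. Rpl10 (3.44) was among the 11, as were Rps6ka1 (4.18), Rps6ka3 (3.32) and Rps6kc1 (2.31), which code for kinases and not for ribosomal proteins and matched by their symbol alone. Rpl10 was at 1.39 to 1.70 CPM in the ACSA-2 and at 16.5 to 19.0 CPM in the CD11b AAV-GFP libraries. Reads with several positions were left out for this list too, and copies of its genes were not searched for.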

How the data were processed

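The deposited values were raw counts per Ensembl gene. The authors made poly(A)-primed full-length cDNA (SMART-Seq v4, no molecular identifiers), sequenced single reads of 50 bases, trimmed them with cutadapt 1.10, aligned them to mm10 with STAR 2.5.3 and counted uniquely aligned reads with HTSeq 0.6.1p1, per the submitters' processing notes and the study's methods. Reads that fell on several places or genes were left out. Here each fraction was fitted alone with edgeR 4.0.16 (R 4.3.3, quasi-likelihood, TMM, filterByExpr, robust), and the comparison of fractions and the difference of vector effects came from a joint fit of 12 libraries on genes in both tables. Adjusted p-values (Benjamini-Hochberg) ran over all genes tested. DESeq2 1.42.0 and limma-voom (limma 3.58.1) were alternatives, beside other scalings, no filter and leaving out libraries. The edgeR fits were also run on simulated counts. These held no library that stood apart and no genes that moved together, so they do not speak to such libraries or genes. CPM in the text is a count divided by the library's total and multiplied by 1e6. Names, positions and sequences came from GENCODE M21 (GRCm38, the build mm10 names). The nuclear genome itself was not searched, only its annotated transcripts. No 2 libraries of a group agreed within sampling noise (the lowest chi-square was 51.6 per degree of freedom). The study gives 3 animals per group.

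The mt mRNAs and the gene lists were chosen with earlier results of these data known. The other genes named were taken by a rule: mt-Nd3 and the rRNA genes, called mt tRNA genes, up to 4 called genes of each list with the largest change, Tfam, Polrmt, Lrpprc, Slirp, Ppargc1a and Pnpt1, nuclear copies at 5 CPM or more (there were none among those counted), the top marker of a list, Adora2a, and the 5 nuclear genes most alike among those with at least 5 CPM in both fractions. Malat1, Neat1 and the pseudogenes shown were named outside the rule.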

Additional observations from a re-analysis of the deposited data

How the results depend on the processing

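No paired analysis was possible because the vectors and fractions share no replicate numbers in the labels. The counts of mt mRNAs called moved with the tool and the library rather than with the scaling. With DESeq2 they were 5 for the vector in CD11b cells, 4 between the fractions and 6 for the difference of the vector effects, beside 0, 1 and 0 with edgeR. Leaving out 1 library gave 0 to 6 called between the fractions and 0 to 7 for the difference of the vector effects, where the high values came without GFP-2331 and the low value between the fractions without GFP-307. Other scalings, no filter, limma-voom, the joint fit and the union of the tables gave the same counts as the main fits. Total counts without TMM moved the median log2 fold change of all genes from -0.05 to -0.17 in CD11b cells, from 0.11 to 0.23 between the fractions and from -0.10 to -0.29 for the difference of the vector effects, and no filter moved the first to -0.26, which changed no direction of a tested mt mRNA. Over all genes DESeq2 called 1277, 502 and 1740 for the vector in ACSA-2 and CD11b cells and for the difference, where edgeR called 553, 0 and 75, and the joint fit called 156 in ACSA-2 cells. For the difference edgeR called 10 with median-of-ratios size factors and 0 with total counts.

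The difference of mean log2 shares of the mt mRNAs (AAV-A2A minus AAV-GFP) was 0.43 in ACSA-2 cells, with -0.16 to 0.92 when 1 library was left out and the negative value without A2A-310, and -2.00 in CD11b cells (-2.90 to -1.42). Between the fractions it was 1.41 (0.83 to 2.31). Without the 3 CD11b libraries rich in choroid plexus markers, an alternative added after the data were seen as was leaving out GFP-2328 and GFP-2329, it was -0.20 in CD11b cells and -0.38 between the fractions, with 0 mt mRNAs called between the fractions. Leaving out GFP-2328 and GFP-2329 also gave 0. The mt-Nd5 difference in share was 4.65 percentage points per kb of gene.

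Without A2A-310 the log2 fold changes in ACSA-2 cells were -0.61 for mt-Nd1, -0.32 for mt-Nd2, -0.27 for mt-Nd4, -0.26 for mt-Nd6, -0.00068 for mt-Co1 and -0.020 for mt-Cytb. The highest values came without A2A-313, at 0.62, 0.78, 0.87, 0.74, 1.27 and 1.01 in the same order. In CD11b cells mt-Nd5 stood at 0.047 without GFP-2328 and GFP-2329, and mt-Co1 at 0.058 without the 3 libraries. Between the fractions, the values without the 3 libraries and without GFP-2328 and GFP-2329 were -0.52 and -0.55 for mt-Nd1, -0.62 and -0.65 for mt-Nd2, -0.65 and -0.67 for mt-Nd4, -0.59 and -0.62 for mt-Nd6, -0.39 and -0.42 for mt-Co1, and -0.20 and -0.22 for mt-Cytb. The cause of these reversals was not tested.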
